A study of Mus musculus with 12 samples.

Results

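The cholesterol synthesis enzymes and the genes around the transcription factor SREBP2 were examined in mouse liver as a list of 29 genes, taken by symbol from a count table of 55291 genes. All 29 were found and all 29 had counts high enough to test. The libraries came from male C57BL/6 mice, an inbred laboratory strain, that entered the study at 6 weeks of age. Of the 12 libraries, 3 came from mice on a normal diet (NC), 3 from mice on a high-fat diet (HFD, Research Diets D12492), and 3 each from mice on that diet that also exercised under a regime labelled AE (HFD+AE) or RE (HFD+RE). Exercise began after 8 weeks of the diet and lasted at least 12 weeks, and the labels name no transgene or other agent. The labels leave AE and RE unexplained, number the libraries 2, 4, 5 (NC), 1, 2, 3 (HFD), 1, 2, 3 (HFD+AE) and 3, 4, 5 (HFD+RE), and do not say that these were separate animals, so p-values reflect the spread of these libraries alone, and part of it may be technical. Values for a gene are given in this order of libraries within each group.

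Cells make cholesterol from acetyl-CoA through mevalonate, farnesyl diphosphate, squalene and lanosterol, and the liver is a main site of this synthesis. SREBP2, encoded by Srebf2, is held in the endoplasmic reticulum by its escort Scap and the Insig proteins when sterols are plentiful. When sterols run low, Scap carries it to the Golgi, proteases release its active part, and it turns on the enzymes of the pathway along with genes of sterol uptake and transport. Dietary cholesterol and fat, insulin and feeding are all known to affect these genes in liver.

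Total counts ran from 44373214 to 77665729 per library. The libraries did not differ by group alone: on the first principal component of all tested genes (40.6% of the variance), HFD+RE 3 and both HFD+AE 1 and 2 lay on the side of NC, while HFD+RE 4 and 5, with HFD+AE 3, lay on the side of HFD. The share of counts from mitochondrial rRNA was 1.76% to 3.26% in HFD and 0.685% to 1.71% in the other 9 libraries. Across genes, the rank correlation of gene length with the deviation from the 12-library mean ran from -0.29 to -0.15 in HFD and from 0.08 to 0.21 in NC, and HFD+RE 4 and 5 were as low as HFD. The hepatocyte markers (5 of 6 matched, among them Alb) summed to 94400 to 115900 counts per 1000000 (CPM) in NC and 54610 to 75400 CPM in HFD, and 3 of 4 adipocyte markers had no counts in NC. Summed markers of Kupffer cells ran from 165.6 to 274 CPM in NC and from 67.01 to 182.9 CPM in HFD, those of endothelial cells from 167.9 to 212.8 CPM and from 74.83 to 120.2 CPM, those of stellate cells from 113.7 to 128.4 CPM and from 220.8 to 321.8 CPM, and those of B and T lymphocytes from 1.6 to 3.89 CPM and from 4.31 to 18.3 CPM. In bulk liver, fewer cells of a type and less RNA per cell cannot be told apart. The part of these differences in the results below was not tested, except for gene length, whose trend was removed in an alternative fit.

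The promoters of the genes whose levels differed are shown here because SREBP2 is known to act at promoters together with the factor NF-Y. Windows from 250 bases before to 50 bases after the start were available from RefSeq (build GRCm38.p6, the same assembly as mm10) for 23 of the 29 genes. Searched on both strands were 3 motifs: the SREBP motif TCACNCCAC, the E-box CACGTG and the NF-Y box CCAAT, which reads ATTGG on the opposite strand. An exact TCACNCCAC was found in 1 of the 23 genes, Hmgcs1, against 1.44% of all genes with a window. The E-box was found in 5 (Dhcr7, Hsd17b7, Insig1, Sc5d and Scap) against 8.09%, and the CCAAT box in 20 against 41.1%. Of the 6 genes called lower in HFD than in NC, 5 had a window, and all 5 windows held a CCAAT box. A match is a description of the letters and not evidence of binding. Below, the windows of 3 genes that fell on the diet (Cyp51, Lbr, Hsd17b7), of Hmgcs1 for its SREBP motif, and of 1 of the 3 starts of Insig2, which was lower in the exercise groups, are written 5′ to 3′ on the gene's strand. Capitals mark the motifs. The windows of the other starts of Insig2, not printed, held none of the 3 motifs. The Cyp51 window lies at chr5:4104717-4104947 (minus strand), Lbr at chr1:181842402-181842651 (minus), Hsd17b7 at chr1:169969212-169969438 (minus), Hmgcs1 at chr13:119690101-119690350 (plus) and Insig2 at chr1:121332590-121332839 (minus), and only bases before the start are printed. The sequences of Lbr, Hmgcs1 and Insig2 run up to the base before the start, that of Cyp51 ends 20 bases before it, and that of Hsd17b7 runs from 233 to 7 bases before it. The bases after the start were searched but are not shown, among them a CCAAT box of Hmgcs1 at position 11.
Cyp51: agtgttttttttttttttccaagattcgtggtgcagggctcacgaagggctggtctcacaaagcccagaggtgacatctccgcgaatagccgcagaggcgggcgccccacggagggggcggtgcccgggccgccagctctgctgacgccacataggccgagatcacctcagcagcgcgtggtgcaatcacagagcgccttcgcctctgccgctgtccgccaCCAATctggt
Lbr: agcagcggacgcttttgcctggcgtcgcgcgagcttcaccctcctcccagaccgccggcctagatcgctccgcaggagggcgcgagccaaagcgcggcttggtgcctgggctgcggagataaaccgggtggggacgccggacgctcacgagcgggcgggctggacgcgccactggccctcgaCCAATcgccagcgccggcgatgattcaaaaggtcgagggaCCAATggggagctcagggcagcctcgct
Hsd17b7: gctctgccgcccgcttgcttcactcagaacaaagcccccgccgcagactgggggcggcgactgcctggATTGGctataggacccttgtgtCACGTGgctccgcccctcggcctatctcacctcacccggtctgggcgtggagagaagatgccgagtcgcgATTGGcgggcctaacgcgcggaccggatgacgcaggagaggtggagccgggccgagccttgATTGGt
Hmgcs1: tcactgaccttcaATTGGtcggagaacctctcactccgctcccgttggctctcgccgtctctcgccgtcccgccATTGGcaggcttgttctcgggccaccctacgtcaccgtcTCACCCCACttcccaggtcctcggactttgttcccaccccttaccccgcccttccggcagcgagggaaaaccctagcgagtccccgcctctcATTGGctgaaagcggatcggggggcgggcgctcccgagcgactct
Insig2: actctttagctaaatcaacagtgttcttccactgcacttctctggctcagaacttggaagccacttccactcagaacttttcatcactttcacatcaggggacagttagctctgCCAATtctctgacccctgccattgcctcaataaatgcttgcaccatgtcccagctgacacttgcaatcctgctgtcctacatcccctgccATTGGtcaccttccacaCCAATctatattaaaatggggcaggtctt
The Hmgcs1 window holds TCACCCCAC starting 137 bases before the start site, and CCAAT boxes on the opposite strand on either side of it. The Hsd17b7 window holds the E-box starting 143 bases before the start and 3 CCAAT boxes, and the Lbr window 2 CCAAT boxes, starting 68 and 28 bases before the start.

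Levels between genes are compared here per length, as CPM per kilobase of exon (RPKM). Over all 12 libraries the most abundant members were Sc5d, a late desaturase (mean 84.5 RPKM), Ebp, a sterol isomerase (83.2 RPKM), Insig1 (59.4 RPKM), Insig2 (43.0 RPKM) and Hmgcs1, which condenses acetyl units into HMG-CoA (33.6 RPKM). At the low end stood Fdps, the farnesyl diphosphate synthase (0.866 RPKM), Lbr, a sterol reductase that is also the lamin B receptor of the nuclear envelope (1.38 RPKM), and Ggps1, which makes geranylgeranyl diphosphate (2.26 RPKM). Fdps had only 102 to 558 reads per library, and how the authors treated reads that map to several places is not given in the sources used here, so its level is uncertain. Exons of 12 of the 29 genes overlap another gene of the table, and in 5 the overlap exceeds 10% of the length (Hmgcs1, Fdps, Fdft1, Tm7sf2 and Scap). Fdft1 shares 774 bases (18.8% of its length) on the opposite strand with Ctsb, a gene with 454841 reads over the 12 libraries against 54078 for Fdft1. Tm7sf2 shares 532 bases (12.1%) with Vps51 (8135 reads, against 51419 for Tm7sf2) on the same strand. How reads in shared bases were counted is not stated, so these values are uncertain to that extent.

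**Figure D1:**
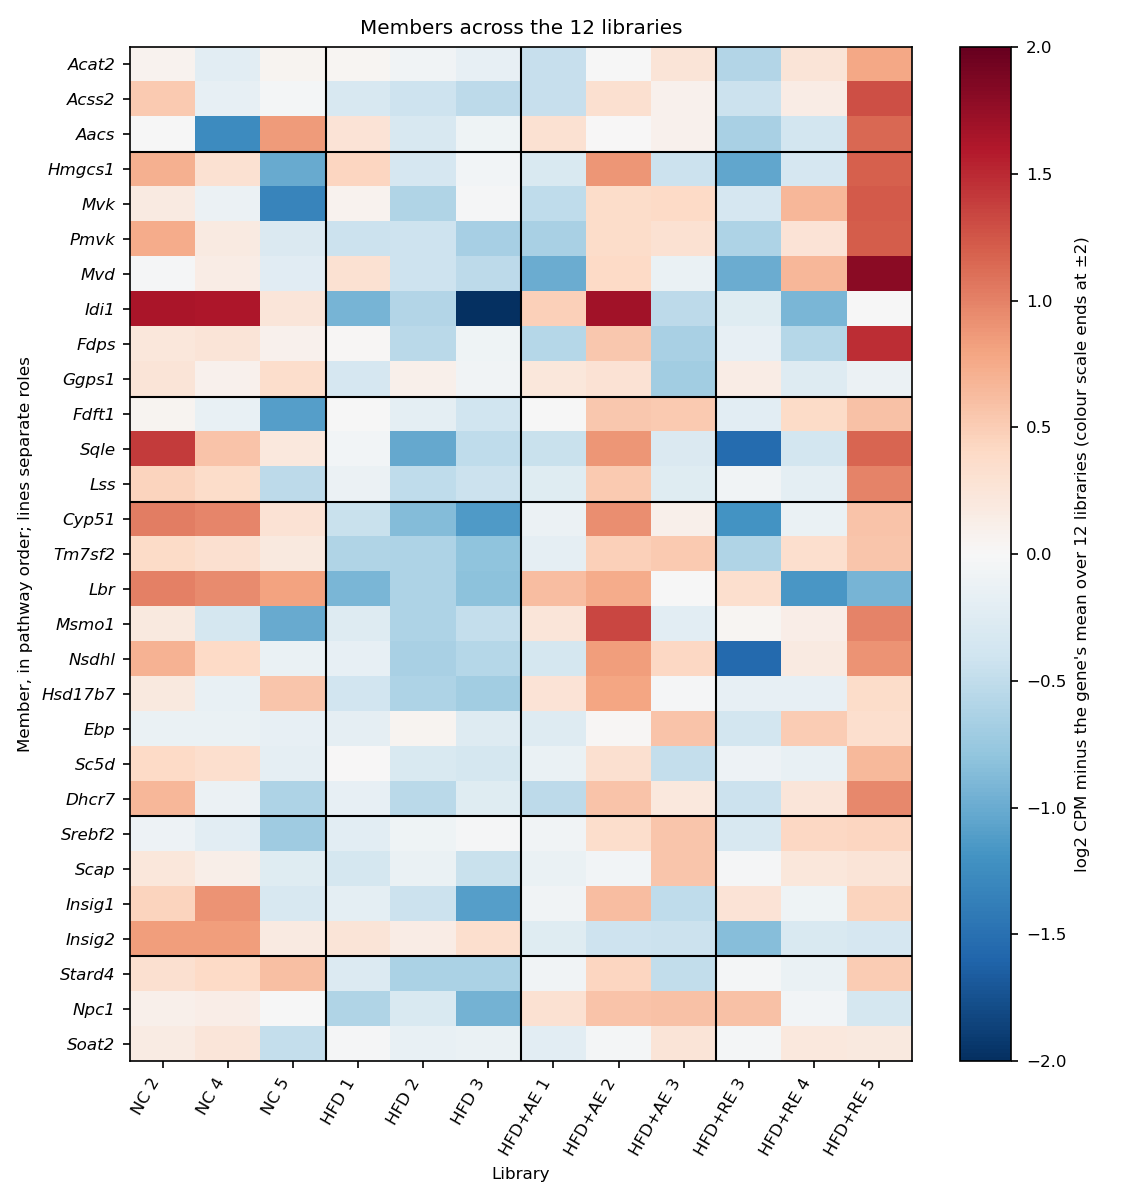
Colour shows log2 CPM minus each gene's mean over the 12 libraries (columns, by group) for the 29 genes (rows, in pathway order). The HFD libraries are blue for most genes of the late pathway, and HFD+RE 5 holds the highest value of 14 of the 29 genes.

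In HFD livers several late enzymes of the pathway, an isomerase of its middle part and a sterol carrier were lower than in NC livers. Of the 29 genes, 6 fell and none rose (edgeR quasi-likelihood test, Benjamini-Hochberg adjusted over 18305 genes), while 23 did not pass. The background was high: 15.6% of all genes tested were called in HFD vs NC, and 7.19% of all genes were called lower. Of 5 tested hepatocyte markers, 2 fell, none rose and 3 did not pass: Alb, which encodes albumin, fell from 91650 to 49020 CPM (log2 change -0.90, SE 0.25, adjusted p = 0.031), and Hnf4a, a liver transcription factor, fell from 1047 to 585.3 CPM (-0.84, SE 0.19, adjusted p = 0.0165). Among the 3 that did not pass, Apoa1, an apolipoprotein of HDL, stood at -0.01 (SE 0.33), the protease inhibitor Serpina1a at -0.25 (SE 0.22) and Ttr, the thyroid hormone carrier, at 0.55 (SE 0.35), with every HFD library above NC for Ttr. Their part in the result was not tested. The 6 were Idi1, Cyp51, Tm7sf2, Lbr, Hsd17b7 and Stard4. The median log2 change over the 29 genes was -0.40, against 0.01 over all genes tested, and 25 of 29 were fitted below 0. In 12 of the 29 genes all 3 HFD libraries lay below all 3 NC libraries, where 22.1% of all genes did so, and in none did they all lie above, where 23.9% of all genes did. At an unadjusted p under 0.05 there were 9 of the 29, beside 34.7% of all genes.

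Idi1 (chromosome 13, 8885501 to 8892451 on mm10), which isomerises isopentenyl diphosphate, had the largest change of the list. It stood at 56.4, 55.9 and 21.5 CPM in the NC livers, 9.50, 12.1 and 3.28 CPM in the HFD livers, 25.3, 57.9 and 12.6 CPM with AE and 15.3, 9.57 and 18.1 CPM with RE. All 3 HFD libraries lay below all 3 NC libraries, and HFD+AE 3 and the HFD+RE libraries lay near them, while HFD+AE 2 was as high as NC 2 and 4. The mean was 44.6 ± 19.97 CPM in NC and 8.30 ± 4.55 CPM in HFD (SD, n = 3), and the gene fell with a fitted log2 change of -2.43 (SE 0.58, adjusted p = 0.0195). The other genes from acetyl units to farnesyl diphosphate did not pass. Hmgcs1 stood at a log2 change of -0.12 (SE 0.54), and the mevalonate kinase Mvk at 0.14 (SE 0.42).

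Cyp51 (chromosome 5, 4081145 to 4104746), the lanosterol demethylase, stood at 163, 160 and 98.3 CPM in the NC livers, 59.4, 43.96 and 36.8 CPM in the HFD livers, 74.2, 154 and 86.4 CPM with AE and 35.2, 73.3 and 120 CPM with RE. HFD was the lowest group by mean, and only HFD+RE 3 lay below all HFD libraries. The change from NC to HFD was -1.59 (SE 0.40, adjusted p = 0.024). Tm7sf2 (chromosome 19, 6062821 to 6068373) and Lbr (chromosome 1, 181815335 to 181843046) encode the alternative sterol reductases that act on the product of Cyp51, and both fell. Tm7sf2 stood at 93.5, 89.5 and 82.4 CPM in the NC livers, 47.4, 46.6 and 41.2 CPM in the HFD livers, 63.6, 99.9 and 104 CPM with AE and 47.05, 90.6 and 106 CPM with RE. The HFD libraries lay within 41.2 to 47.4 CPM, about at the level of HFD+RE 3 and below every other library. Its change was -0.97 (SE 0.27, adjusted p = 0.031).

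Lbr stood at 11.4, 10.9 and 9.98 CPM in the NC livers, 2.997, 3.69 and 3.20 CPM in the HFD livers, 8.68, 9.53 and 5.64 CPM with AE and 7.15, 2.52 and 2.96 CPM with RE. HFD+RE 4 and 5 were as low as HFD, whereas the HFD+AE libraries and HFD+RE 3 lay between HFD and NC. Its change from NC to HFD was -1.71 (SE 0.34, adjusted p = 0.0111). Hsd17b7 (chromosome 1, 169949535 to 169969241), a sterol keto-reductase, stood at 61.2, 48.5 and 78.5 CPM in the NC livers, 41.1, 35.1 and 33.2 CPM in the HFD livers, 64.6, 93.1 and 53.01 CPM with AE and 48.05, 48.1 and 69.2 CPM with RE. The HFD libraries were the lowest of the 12, and the change was -0.78 (SE 0.24, adjusted p = 0.0462). Stard4 (chromosome 18, 33199355 to 33213862), a carrier of cholesterol between membranes and a known SREBP2 target, stood at 131, 139 and 160 CPM in the NC livers, 87.1, 67.9 and 67.8 CPM in the HFD livers, 100, 141 and 75.1 CPM with AE and 102, 95.7 and 150 CPM with RE. HFD+AE 3 lay among the HFD libraries and the other exercise libraries above them. Its change was -0.95 (SE 0.24, adjusted p = 0.0255).

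These calls depended on which libraries entered. Without HFD 1 or without HFD 3 none of the 6 passed, and without NC 2 or without NC 4 only Lbr did. The count over all genes then fell from 2851 to 488 without HFD 1, 411 without HFD 3, 941 without NC 2 and 581 without NC 4. The adjusted p of Lbr was 0.0571 without HFD 1 and 0.0573 without HFD 3. Hsd17b7 was also lost without NC 5 (adjusted p = 0.135), HFD 2 (0.0804), HFD+AE 1 (0.0576) or HFD+RE 4 (0.0524), and Stard4 without NC 5 (0.0603). The direction was downward in every one of the 19 alternatives for each of the 6 genes. As their HFD and NC libraries do not overlap, leaving libraries out could hardly have reversed it. With each library's trend on gene length removed, 5 of the 6 were still called, with Hsd17b7 at an adjusted p of 0.0652. Without the low-count filter, Idi1 (0.0779) and Cyp51 (0.0527) did not pass and the other 4 did, beside 2797 of all genes. With library totals in place of TMM scaling, a change that moved the median of all genes from 0.01 to 0.21, only Idi1, Cyp51 and Lbr were called, and the median of the 29 was -0.20. Over all genes 3257 were then called, 614 of them lower.

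**Figure D2:**
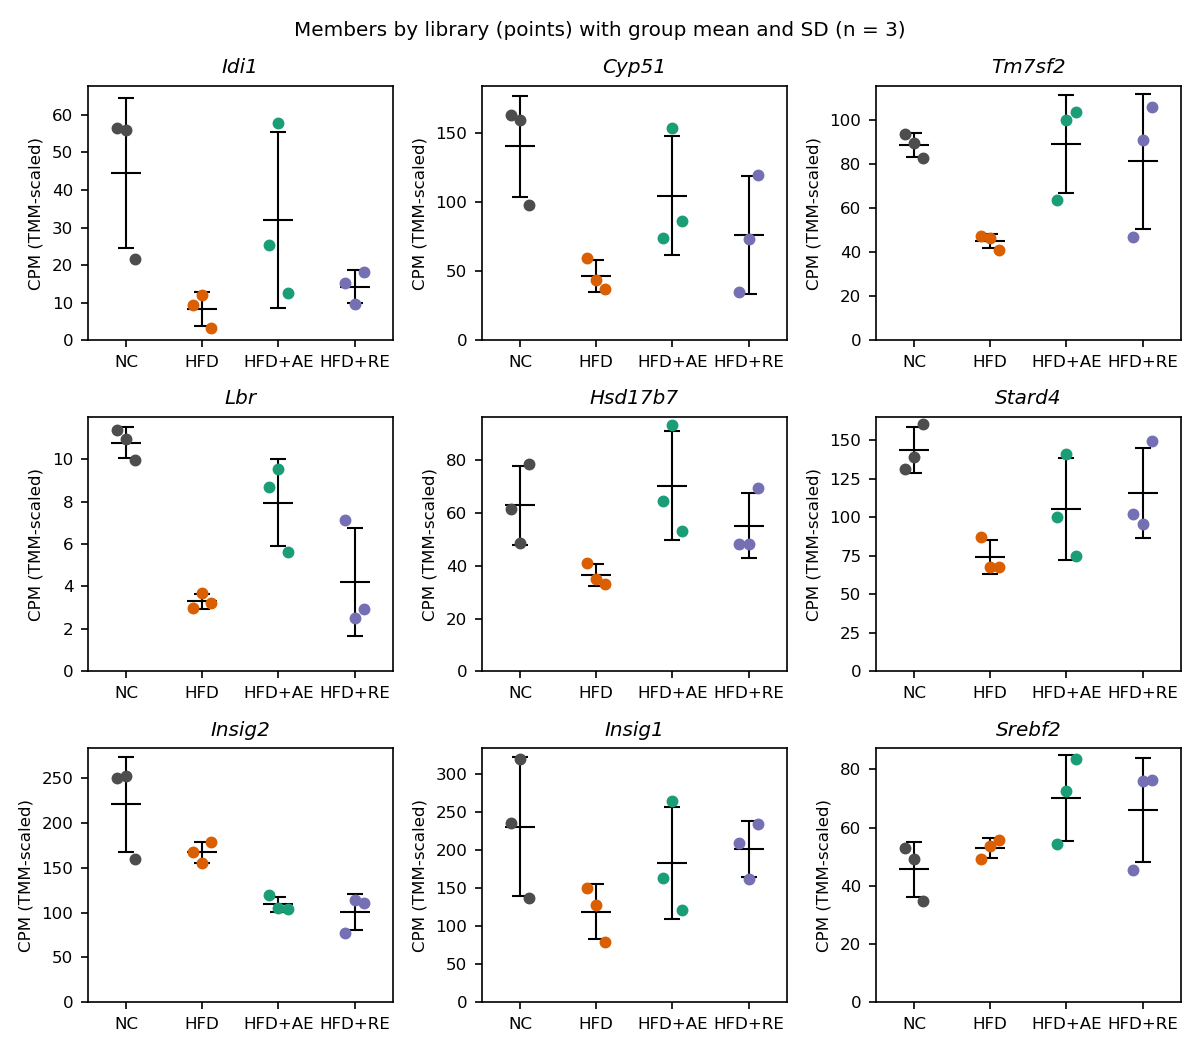
Each point is 1 library (TMM-scaled CPM, y axis) in the group on the x axis, with the group mean and SD (n = 3), for the 6 genes called lower in HFD vs NC and for Insig2, Insig1 and Srebf2. HFD lies below NC without overlap in the first 6 panels, and in the Insig2 panel the 6 exercise libraries lie below the 3 HFD libraries.

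A further 6 genes had HFD libraries all below NC without passing the test. Sqle, the squalene epoxidase, which is a rate-limiting step after mevalonate, stood at 68.8, 38.9 and 30.4 CPM in the NC livers, 25.1, 12.8 and 18.4 CPM in the HFD livers, 19.2, 48.3 and 21.5 CPM with AE and 9.02, 20.4 and 58.9 CPM with RE. The spread within NC and within the exercise groups was wide, and the change from NC to HFD was -1.29 (SE 0.57, adjusted p = 0.126). Npc1, which exports cholesterol from lysosomes, stood at 111, 114 and 103 CPM in the NC livers, 68.3, 83.8 and 53.4 CPM in the HFD livers, 128, 153 and 155 CPM with AE and 156, 99.1 and 80.7 CPM with RE. Here HFD was the low group, and the change on the diet was -0.67 (SE 0.24, adjusted p = 0.0698). Every HFD+AE library was above every NC library, where 12.1% of all genes did so. DESeq2 called Npc1 lower in HFD, among 4167 genes that it called in all. So did the edgeR fits without HFD 2, without HFD+RE 3, without HFD+AE 3 and HFD+RE 3 together, or with only the 2 groups. The fit with only the 2 groups also called Sqle, Nsdhl and Pmvk lower, beside 4928 of all genes. Nsdhl, the decarboxylating sterol dehydrogenase, stood at 68.4, 55.9 and 38.3 CPM in the NC livers, 37.7, 26.9 and 28.6 CPM in the HFD livers, 32.9, 75.3 and 56.2 CPM with AE and 14.3, 47.6 and 78.9 CPM with RE. HFD 1 lay just under NC 5, HFD+RE 3 was lower than any HFD library, and the change was -0.80 (SE 0.46, adjusted p = 0.232). Pmvk, the phosphomevalonate kinase, stood at 32.2, 21.9 and 15.9 CPM in the NC livers, 14.3, 14.4 and 12.1 CPM in the HFD livers, 12.3, 25 and 23.8 CPM with AE and 12.6, 23.4 and 44.8 CPM with RE. NC 5 at 15.9 CPM lay just above HFD 2 at 14.4 CPM, and the change was -0.78 (SE 0.40, adjusted p = 0.182). Acss2, which makes acetyl-CoA from acetate, stood at 154, 94.8 and 103 CPM in the NC livers, 85.6, 79.8 and 73.8 CPM in the HFD livers, 77.3, 133 and 112 CPM with AE and 79.1, 118 and 261 CPM with RE, a change of -0.56 (SE 0.36, adjusted p = 0.286) from NC to HFD, and HFD+RE 5 was far above the other 11 libraries. Fdps stood at 3.88, 3.96 and 3.51 CPM in the NC livers, 3.37, 2.27 and 3.12 CPM in the HFD livers, 2.23, 4.84 and 2.10 CPM with AE and 2.95, 2.22 and 9.29 CPM with RE. HFD 1 was only just under NC 5, the change was -0.37 (SE 0.47, adjusted p = 0.593), and again HFD+RE 5 was the highest library.

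The other enzymes showed no call between NC and HFD. On the log2 scale, pathway members that stood close to 0 included Ebp at 0.02 (SE 0.25), Acat2, an acetoacetyl-CoA thiolase, at -0.04 (SE 0.28), Soat2, which esterifies cholesterol in liver and intestine, at -0.10 (SE 0.20), and Fdft1, the squalene synthase, at 0.13 (SE 0.29). The lanosterol synthase Lss (-0.50, SE 0.34), Sc5d (-0.41, SE 0.27), the last-step reductase Dhcr7 (-0.38, SE 0.38) and Ggps1 (-0.32, SE 0.24) were fitted lower without passing. The methyl sterol oxidase Msmo1 stood at -0.14 (SE 0.39), the mevalonate diphosphate decarboxylase Mvd at -0.14 (SE 0.52) and Aacs, which activates acetoacetate, at -0.12 (SE 0.48). By role, 4 of the 9 genes from lanosterol to cholesterol fell, 1 of 7 from mevalonate to farnesyl diphosphate, 1 of 3 of sterol transport and esterification, and none of the 3 entry enzymes, the 3 from squalene to lanosterol or the 4 regulators. Whether the roles differ from each other was not tested.

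The regulators did not follow 1 pattern. Srebf2 stood at 52.98, 49.1 and 34.8 CPM in the NC livers, 49.1, 53.8 and 55.7 CPM in the HFD livers, 54.2, 72.5 and 83.4 CPM with AE and 45.4, 76.1 and 76.4 CPM with RE. NC and HFD overlapped, with a change of 0.21 (SE 0.24, adjusted p = 0.539). The HFD+AE libraries lay above all NC libraries (log2 change 0.62, SE 0.24, adjusted p = 0.247), where 12.1% of all genes did so. Scap stood at 108, 99.5 and 77.9 CPM in the NC livers, 71.8, 84.04 and 67.6 CPM in the HFD livers, 83.6, 88.8 and 135 CPM with AE and 90.9, 108 and 110 CPM with RE. Its change on the diet was -0.35 (SE 0.21, adjusted p = 0.249), and all 3 HFD+RE libraries lay above HFD (log2 change 0.47, SE 0.21, adjusted p = 0.553).

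Insig1, itself a classic SREBP target, stood at 235, 319 and 137 CPM in the NC livers, 150, 128 and 79.8 CPM in the HFD livers, 163, 264 and 121 CPM with AE and 208, 162 and 234 CPM with RE. HFD 3 was the lowest library and NC 4 the highest, and the change on the diet was -0.95 (SE 0.35, adjusted p = 0.075). DESeq2 and the edgeR fit without NC 5 called it lower in HFD, where they called 4167 and 2068 of all genes. Insig2, which retains SREBPs as Insig1 does but is regulated differently in liver, went its own way. It stood at 250, 252 and 159 CPM in the NC livers, 167, 155 and 178 CPM in the HFD livers, 119, 105 and 104 CPM with AE and 77.6, 114 and 111 CPM with RE. The 6 exercise libraries lay below all 3 HFD libraries and below all 3 NC libraries, without overlap. Of all genes, 9.74% lay so in HFD+AE and 12.4% in HFD+RE against NC, and 16.3% and 6.99% against HFD. Against NC, Insig2 fell in HFD+AE by 1.01 on the log2 scale (SE 0.21, adjusted p = 0.0376) and in HFD+RE by 1.13 (SE 0.21, adjusted p = 0.0154). Against HFD the differences did not pass, at -0.61 (SE 0.21, adjusted p = 0.105) in HFD+AE and -0.73 (SE 0.21, adjusted p = 0.316) in HFD+RE, and HFD vs NC stood at -0.40 (SE 0.21, adjusted p = 0.194). The summed hepatocyte markers ran from 92340 to 106800 CPM in HFD+AE and from 82680 to 100500 CPM in HFD+RE, and the summed stellate cell markers from 209.8 to 219.3 CPM and from 176.1 to 246 CPM. Their part in the Insig2 values was not tested.

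In the test of any difference among the 4 groups, Insig2 (adjusted p = 0.0199) and Lbr (0.0275) were the 2 genes of the 29 that passed, where 6.62% of all genes did. Idi1 stood at 0.0507 and Npc1 at 0.058. Neither Insig2 nor Lbr passed this test without NC 2, NC 4, HFD 1 or HFD 3, each left out alone, and Lbr did not without HFD+AE 2. Without HFD+RE 3, 10 genes passed. The share of all genes that passed this test in that fit is not given here. In the same fit the calls over all genes in HFD vs NC rose from 2851 to 4462.

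In HFD+AE livers no gene of the list passed against HFD (edgeR), where 0.0492% of all genes tested were called. At an unadjusted p under 0.05 there were 9 genes of the 29, beside 26.4% of all genes, and DESeq2 called 6 as higher (Idi1, Cyp51, Tm7sf2, Lbr, Hsd17b7 and Npc1) among 2105 genes that it called in all. With edgeR 28 of 29 genes were fitted above HFD, all but Insig2, with a median of 0.46 against 0.00 over all genes tested. The 3 HFD+AE libraries all lay above the 3 HFD libraries for 7 genes, where 15.8% of all genes did so. These were Idi1, Cyp51, Tm7sf2, Lbr, Msmo1, Hsd17b7 and Npc1. They all lay below for Insig2 alone, where 16.3% of all genes did so. No marker of another cell type passed in this comparison, but all 6 endothelial markers were fitted above HFD (median 1.02, 4 without overlap) and all 6 of B and T lymphocytes below it (median -1.90, 6 at an unadjusted p under 0.05, 2 without overlap). Their summed levels in HFD+AE ran from 143 to 241.8 CPM and from 1.74 to 4.39 CPM, and their part in these values was not tested. Npc1 had the smallest p, at 1.09 (SE 0.24, adjusted p = 0.0596), followed by Hsd17b7 at 0.95 (SE 0.24, adjusted p = 0.0633), Lbr at 1.27 (SE 0.34, adjusted p = 0.067) and Tm7sf2 at 0.98 (SE 0.27, adjusted p = 0.0678). The largest fitted change was that of Idi1, 1.95 (SE 0.57, adjusted p = 0.075), with libraries from 12.6 to 57.9 CPM in HFD+AE. HFD 1, 2 and 3 enter both this comparison and HFD vs NC, so the changes in opposite directions are not independent of each other.

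The call of genes in HFD+AE vs HFD turned on which libraries entered. Without HFD+RE 3, a library of neither group that adds to the shared estimate of the spread, 5 genes passed as higher (Cyp51, Tm7sf2, Lbr, Hsd17b7 and Npc1) and 1930 of all genes were called instead of 9. Without HFD 2 there were 2 (Idi1 and Npc1) among 1691 genes called, and without HFD+RE 5 there was 1 (Npc1) among 124. With only the 6 libraries of both groups 3 passed (Tm7sf2, Lbr and Npc1) among 649, and without HFD+AE 3 and HFD+RE 3 together 8 passed, all higher, with 4253 of all genes. With library totals only, Insig2 passed as lower and no gene of the list as higher, among 772. That scaling moved the median of all genes to -0.22. With each library's trend on gene length removed, 0 genes of the list passed and their median change was 0.38, beside 95 of all genes called.

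**Figure D3:**
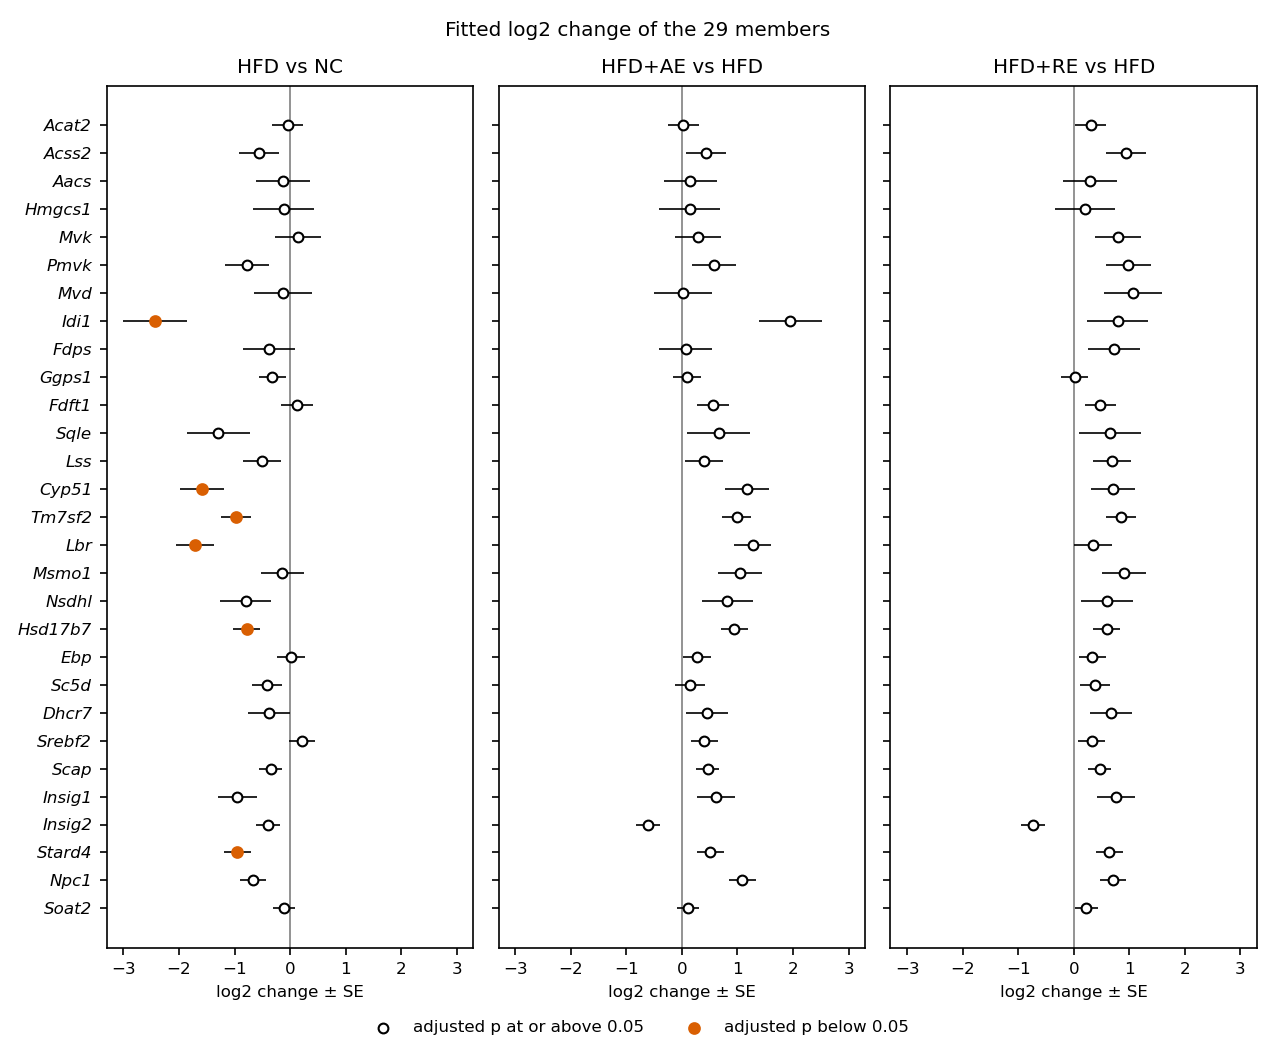
Fitted log2 change with its SE (x axis) for the 29 genes (y axis, pathway order) in HFD vs NC, HFD+AE vs HFD and HFD+RE vs HFD, with filled points for an adjusted p below 0.05. Filled points occur only in HFD vs NC (6, all below 0), and Insig2 is the only gene below 0 in both exercise panels. The 3 panels share the HFD libraries.

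In HFD+RE livers no gene of the list passed against HFD by edgeR or DESeq2, where 0.0109% of all genes tested were called by edgeR. At an unadjusted p under 0.05 there were 10 of the 29, against 8.77% of all genes. Again 28 of 29 genes were fitted above HFD and Insig2 below it, with a median of 0.64 against 0.04 over all genes. The largest fitted changes were those of Mvd at 1.06 (SE 0.52, adjusted p = 0.59) and Pmvk at 0.98 (SE 0.40, adjusted p = 0.491), and the smallest p values those of Insig2 and of Tm7sf2 at 0.85 (SE 0.27, adjusted p = 0.344). The HFD+RE libraries all lay above HFD for 5 genes (Msmo1, Hsd17b7, Scap, Insig1 and Stard4), where 7.15% of all genes did so, and all below it for 1 (Insig2), where 6.99% did. Of the markers of other cell types, none passed, and all 6 of B and T lymphocytes were fitted below HFD (median -1.62), while 5 of 6 endothelial markers were fitted above it (median 0.35). Their part in these values was not tested.

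The 3 HFD+RE libraries were far apart for most of the list. HFD+RE 5 had the highest value of the 12 libraries for 14 of the 29 genes, and HFD+RE 3 the lowest for 7. The mean deviation over the 29 genes was -0.39, -0.02 and 0.63 on the log2 scale for HFD+RE, against 0.44, 0.22 and -0.14 for NC, -0.19, -0.40 and -0.49 for HFD, and -0.16, 0.49 and 0.01 for HFD+AE. Mvd is an example, at 7.96, 8.92 and 6.87 CPM in the NC livers, 9.93, 6.07 and 5.62 CPM in the HFD livers, 4.02, 10.6 and 7.33 CPM with AE and 4.05, 12.7 and 28.4 CPM with RE. Hmgcs1 is another, at 225, 171 and 68.5 CPM in the NC livers, 185, 109 and 133 CPM in the HFD livers, 112, 256 and 103 CPM with AE and 67.1, 109 and 315 CPM with RE. In both genes HFD+RE 5 was the highest library and HFD+RE 3 among the 2 lowest, and for Hmgcs1 NC 5 lay far below NC 2 and 4. Leaving out HFD+RE 5 lowered the median change of the 29 genes in HFD+RE vs HFD from 0.64 to 0.25. NC 5 stood apart from NC 2 and 4, with the lowest value of the 12 libraries for 7 genes.

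**Figure D4:**
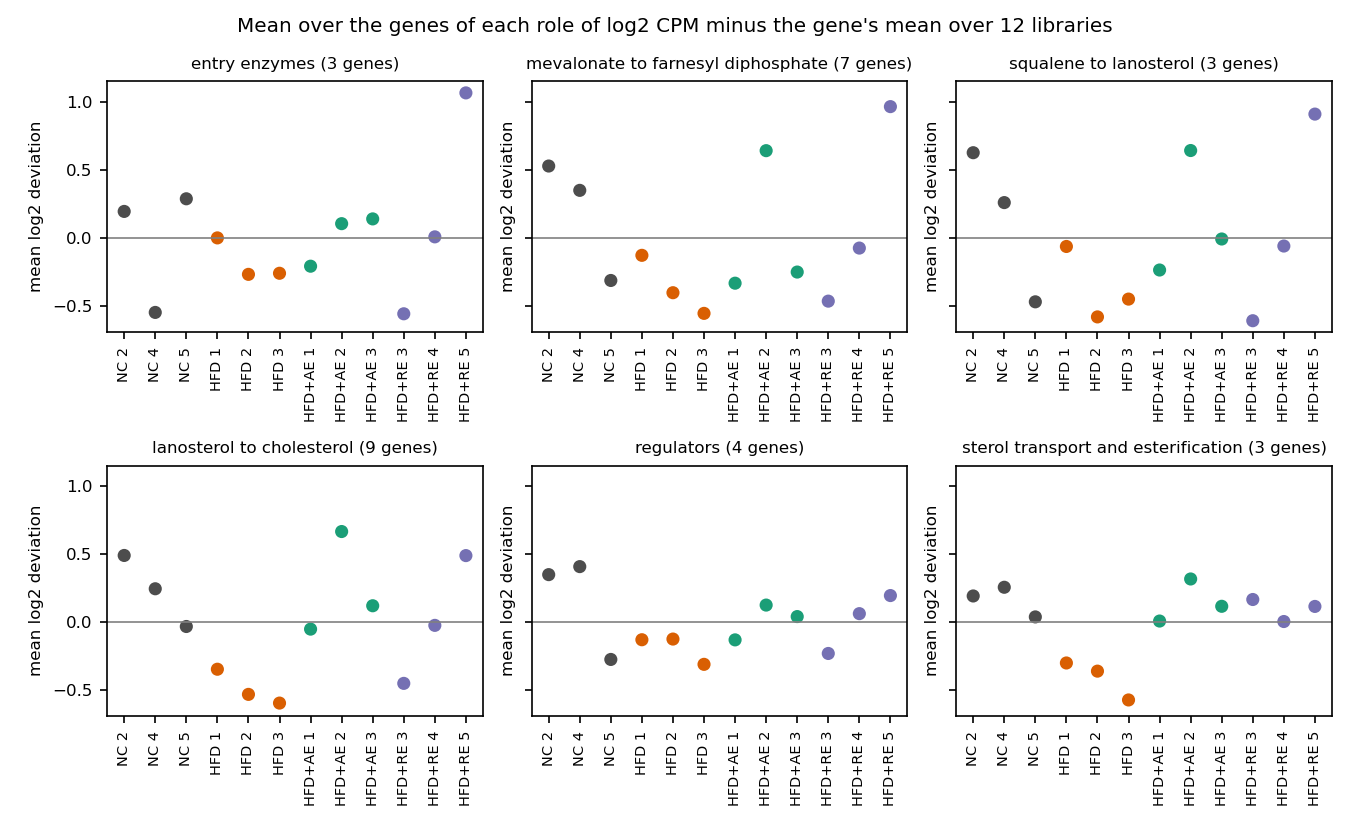
For each role, points show the mean over its genes of log2 CPM minus the gene's mean over the 12 libraries (y axis), by library (x axis) and coloured by group. The high point of HFD+RE 5 and the low point of HFD+RE 3 recur in the panels from the entry enzymes to lanosterol, whereas the genes of sterol transport and esterification separate HFD from all other libraries.

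Comparing HFD+RE with HFD+AE, no gene of the list passed in edgeR or DESeq2, where edgeR called 0% of all genes (0 of 18305) and DESeq2 called 24 genes. At an unadjusted p under 0.05, a level that 8.02% of all genes met, there was 1 of the 29, Lbr, at -0.92 (SE 0.34, adjusted p = 0.606). Fitted changes went both ways, 16 above 0 and 13 below, with a median of 0.06. Without HFD+AE 3 and HFD+RE 3 together, 4 genes passed (Acat2, Lbr, Ebp and Npc1), beside 4170 of all genes. The failure to pass does not show that the exercise groups were alike: the SE of Idi1 and Mvd was 0.55 and 0.52 on the log2 scale.

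Against NC, Insig2 was the gene that passed in both exercised high-fat groups. In HFD+AE vs NC it was the only one of the 29, where 1.38% of all genes tested were called and 0.481% were lower. The median change of the 29 genes was -0.02, and it was above 0 in 2 of the 19 alternatives. With RE, Insig2 and Lbr (-1.35, SE 0.34, adjusted p = 0.0433) fell against NC, where 3.96% were called and 1.28% were lower, with a median of 0.12 (below 0 in 2 of the 20 alternatives). Idi1 stood at -1.64 (SE 0.56, adjusted p = 0.105) there, with all HFD+RE libraries below NC, where 12.4% of all genes did so. Cyp51 stood at -0.88 (SE 0.39, adjusted p = 0.19). The Insig2 call in HFD+AE vs NC was lost without NC 2, NC 4, HFD+RE 5 or any 1 library of HFD or HFD+AE (adjusted p from 0.0504 to 0.168). In HFD+RE vs NC it was lost without NC 2 (0.0552), NC 4 (0.0728) or HFD+RE 4 (0.0523). Lbr in HFD+RE vs NC was lost in 12 of 20 alternatives, among them the fits without each library other than HFD+AE 3 and HFD+RE 3. The fitted change of Insig2 stayed between -1.20 and -0.90 in HFD+AE vs NC and between -1.32 and -0.85 in HFD+RE vs NC.

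Other genes of the pathway were taken from 4 lists. Of all genes tested, 8.38% were called higher and 7.19% lower in HFD vs NC, and the first 2 lists were near that lower share. Of 15 tested genes of SREBP processing and sterol-regulated degradation, 1 fell in HFD vs NC and 14 did not pass (median -0.31). It was Rnf139, a ubiquitin ligase of the endoplasmic reticulum also known as TRC8, which fell from 27.8 to 16.4 CPM (log2 change -0.76, SE 0.24, adjusted p = 0.049). Of 14 genes of the isoprenoid branches, 1 fell (Zmpste24, a protease that processes prenylated lamin A, by 0.59 on the log2 scale, SE 0.18, adjusted p = 0.044) and 13 did not pass (median 0.05). Of 12 tested genes of intracellular sterol transport and esterification, 1 rose and 2 fell (median 0.02). Cyp46a1, a cholesterol hydroxylase best known from brain, rose from 2.87 to 17.5 CPM (log2 change 2.60, SE 0.47, adjusted p = 0.0076), and Cyp27a1, a sterol hydroxylase of mitochondria, fell from 446.4 to 258.0 CPM (log2 change -0.79, SE 0.17, adjusted p = 0.014). Of 11 tested genes otherwise reported to respond to SREBP2, 1 rose and 4 fell in HFD vs NC (median -0.68). Tmem97 did not pass by edgeR (log2 change 0.84, SE 0.30, adjusted p = 0.073), but every HFD library lay above NC and DESeq2 called it, among 4167 genes in all. Srebf1, which encodes SREBP1, rose from 97.6 to 233.5 CPM (log2 change 1.26, SE 0.38, adjusted p = 0.042), while Acly, which makes cytosolic acetyl-CoA for both sterol and fatty acid synthesis, fell from 272.8 to 96.2 CPM (log2 change -1.50, SE 0.29, adjusted p = 0.0099). Lpin1, a phosphatidate phosphatase, fell from 729.8 to 214.0 CPM (log2 change -1.77, SE 0.42, adjusted p = 0.019).

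None of these genes passed in HFD+AE vs HFD, HFD+RE vs HFD, HFD+RE vs HFD+AE or HFD+AE vs NC by edgeR. At an unadjusted p under 0.05 those comparisons had 12, 5, 0 and 13 of the 52 tested genes, where 26.4%, 8.77%, 8.02% and 14% of all genes did, and DESeq2 called 0 in HFD+RE vs HFD, 0 in HFD+RE vs HFD+AE and 4 in HFD+AE vs NC (Cyp46a1, Srebf1, Stard5 and Syvn1), where it called 792 of all genes. In HFD+RE vs NC, 2 of the 52 passed by edgeR, where 3.96% of all genes were called and 2.67% were higher. Srebf1 was higher at 454.3 against 97.6 CPM (log2 change 2.22, SE 0.39, adjusted p = 0.012) and Cyp46a1 at 12.4 against 2.87 CPM (2.10, SE 0.47, adjusted p = 0.029). At an unadjusted p under 0.05 there were 14, beside 24.5% of all genes. DESeq2 called 8 (Acly, Cyp46a1, Lpin1, Osbp, Rabggta, Srebf1, Stard5 and Syvn1), where it called 1941 of all genes.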

How the data were processed

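The authors deposited a table of raw read counts, with 1 row per gene, 1 column per library and the summed exon length of each gene. Per the file headers it was written by featureCounts 2.0.6, and fastp, HISAT2 2.2.1, DESeq2 1.40.1 and build mm10 are named in the submitters' processing notes. The sources used here do not give the strand setting, the treatment of multi-mapping reads or the annotation release.

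The 29 genes were matched by symbol. The 29 genes, the other lists and the markers were chosen with earlier results of these data known. Genes with low counts were removed (filterByExpr by group), which left 18305 of 55291, and libraries were scaled by TMM. One model of 4 group means over all 12 libraries was fitted with edgeR 4.0.16 (quasi-likelihood F-test, robust, in R 4.3.3), for 6 comparisons and for any difference among the groups, with Benjamini-Hochberg adjustment over 18305 genes and a threshold of 0.05. The SE of a log2 change is its size over the square root of F. CPM are TMM-scaled counts per 1000000, and RPKM are CPM per kilobase of the deposited length. Values in every library are given for genes called in any comparison, for those whose NC and HFD libraries do not overlap and for the regulators. From the other lists, up to 2 called genes per list and comparison are named by smallest p, and Srebf1, named so in HFD+RE vs NC, is also given in HFD vs NC. Tmem97, called there by DESeq2 but not by edgeR, is given as well. The DESeq2 calls of the other lists in HFD+AE vs HFD are not reported here. Mvd and Hmgcs1 were chosen as examples after their values were seen.

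The script was tested on simulated counts for HFD vs NC with 17838 genes tested: it recovered 0% of 50 genes changed 1.5-fold, 20% of 50 changed 2-fold and 92% of 50 changed 4-fold, with 4 false calls. No libraries were duplicates: chi-square over its degrees of freedom was 61 or more in all 66 pairs. Alternatives were DESeq2 1.42.0, RLE factors, library totals, removal of a length trend, no low-count filter, only the groups compared, each library left out, HFD+AE 3 and HFD+RE 3 left out (an earlier account of these data found them apart), and the library number as a block.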

Additional observations from a re-analysis of the deposited data

How the results depend on the processing

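No direction of a called gene was reversed in any alternative. For each called gene the libraries of the 2 groups compared did not overlap, so leaving libraries out could hardly have reversed it. In HFD vs NC, 6 of the 29 genes were called, 8 by DESeq2 (with Insig1 and Npc1 added), 3 with library totals and 4 without the low-count filter. It was 10 with only the 2 groups in the fit, and 0 to 7 with 1 library left out. All these calls were lower. In HFD+AE vs HFD, none was called, against 6 by DESeq2, 1 with library totals, 4 without the low-count filter, 3 with only the 2 groups, 8 without HFD+AE 3 and HFD+RE 3, and 0 to 5 with 1 library left out. In HFD+RE vs HFD the count was 0 in all 19 alternatives. Between the exercise groups it was 4 without HFD+AE 3 and HFD+RE 3 and 0 to 0 with 1 library left out. In HFD+AE vs NC it was 1, 0 with only the 2 groups, and 0 to 1 with 1 library left out. For HFD+RE vs NC it was 2, both lower, against 1 with library totals, 3 by DESeq2 and 0 with only the 2 groups. Without HFD+AE 3 and HFD+RE 3 it was 7, of which 5 were higher (Acat2, Mvk, Mvd, Ebp and Srebf2) and 2 lower. With 1 library left out it was 0 to 5. The 5 came without HFD+RE 3, with 3 higher (Mvk, Mvd and Srebf2) and 2 lower, beside 3983 of all genes. In the test of any difference it was 2, 8 by DESeq2, 6 without the low-count filter, 13 without HFD+AE 3 and HFD+RE 3, and 0 to 10 with 1 library left out. For that test the counts over all genes in the alternatives are not given here. Over all genes, HFD+AE vs HFD had 9 calls against 2105 by DESeq2, 772 with library totals, 953 without the low-count filter and 649 with only the 2 groups, and HFD vs NC had 2851 against 4928 with only the 2 groups and 6258 without HFD+AE 3 and HFD+RE 3. HFD+RE vs NC had 724 against 1941 by DESeq2 and 5989 without HFD+AE 3 and HFD+RE 3. The cause of these differences was not tested.

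With the library number as a replicate block, 6 genes (Idi1, Cyp51, Tm7sf2, Lbr, Hsd17b7 and Npc1) were called in HFD+AE vs HFD, and 2100 of all genes. Whether the numbers pair the libraries cannot be settled with so few libraries. Correlations of same-numbered deviations were -0.12, 0.11 and 0.086 for numbers 1, 2 and 3, and libraries 2 and 3 but not 1 correlated best with their own number. Between NC and HFD+RE only numbers 4 and 5 are shared (-0.089 and 0.16), and number 5 but not 4 correlated best with its own. A block fit over those 4 libraries, chosen after seeing the data, called 2 genes (Lbr as lower and Srebf2 as higher) and 2554 of all genes. In that fit Insig2 did not pass (log2 change -0.85, adjusted p = 0.0505).

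With 3 libraries a group, the simulated test recovered few changes of 2-fold or less. Far fewer genes were changed in it than the 2851 called in HFD vs NC, so its recovery need not hold for that comparison. A gene that did not pass is not shown to be equal between groups. Fdps, with 102 to 558 reads per library, is the member most limited by depth.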

Other observations

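Insig1 and Insig2, which both retain SREBPs, stood in different proportion in the 6 exercise libraries than in the 3 HFD libraries. The ratio of Insig1 to Insig2 in RPKM was 1.06, 1.42 and 0.97 in NC 2, 4 and 5 and 1.01, 0.922 and 0.503 in HFD 1, 2 and 3. With AE the ratios were 1.54, 2.82 and 1.31, and with RE, in libraries 3, 4 and 5, they were 3.01, 1.60 and 2.37. All 6 exercise libraries lay above all 3 HFD libraries. The 3 HFD+RE libraries lay above all NC libraries, whereas HFD+AE 3 at 1.31 lay below NC 4 at 1.42. With 3 libraries against 3, the exact two-sided permutation p was 0.1 for HFD+AE vs HFD, HFD+RE vs HFD and HFD+RE vs NC, the smallest this design allows. It was 0.2 for HFD vs NC and for HFD+AE vs NC, and 0.4 for HFD+RE vs HFD+AE. The ratio was chosen after its values were seen, the comparisons share libraries, and these 6 p-values are unadjusted.

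Among the lists of other cell types, stellate cell and fibroblast genes were higher in HFD than in NC. Of 6 tested, 5 rose and 1 did not pass, where 8.38% of all genes were called higher. Dcn, a matrix proteoglycan, stood at 170.7 against 65.6 CPM (log2 change 1.38, SE 0.20, adjusted p = 0.00268), and Col1a1, a fibrillar collagen, at 11.8 against 2.94 CPM (1.99, SE 0.41, adjusted p = 0.0121). Of 6 B and T lymphocyte genes, 4 rose, and of 6 endothelial genes, 2 fell (Kdr and Cdh5, both of vascular endothelium), where 7.19% of all genes were called lower.

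Fabp5, a fatty acid binding protein listed among the SREBP2-responsive genes and chosen here after its values were seen, fell from 19.6 to 2.38 CPM in HFD vs NC (log2 change -3.04, SE 0.76, adjusted p = 0.0237), the largest fall among the 52 other pathway genes tested. The call was by edgeR alone: DESeq2 called 11 of the 52 genes in this comparison, where it called 4167 of all genes, and Fabp5 was not among the 11.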
